A study of Mus musculus with 34 samples.

Results

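Tetraspanins are small membrane proteins that cross the membrane several times and gather integrins, receptors and other partners into patches of the plasma membrane and of endosomes. CD63, CD81 and CD9 are widely used as marks of secreted vesicles, CD63 appears on the surface of mast cells (MCs) when their granules fuse with the plasma membrane, CD37 and CD53 are found on leukocytes, and CD151 binds laminin-binding integrins. 10 tetraspanin genes were followed here, namely Cd9, Cd37, Cd53, Cd63, Cd81, Cd82, Cd151, Tspan3, Tspan4 and Tspan31. All 10 are among the 25852 genes of the transcript tables, and 19 of 21 other tetraspanin genes that were listed are there too.

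The transcripts were counted in single cells of mouse ear skin by mCEL-Seq2, in which each captured molecule carries a unique molecular identifier (UMI) near its 3′ end. MCs were sorted as CD45+ lineage-negative YFP+ cells from 7-week-old male C57BL/6J mice that all carried Mcpt5-Cre and the R26LSLYFP reporter on the albino C57BL/6J background. The 3 WT mice had 2 intact copies of Tln1, which encodes the integrin activator talin-1, and the 3 Tln1ΔMC mice carried Tln1fl/fl, so that Mcpt5-Cre deletes Tln1 in connective tissue-type MCs and the controls carry Cre and reporter too. Another sort took CD45− GFP+ cells of C57BL/6J Myh11GFP/+ ear skin, in which the Myh11 promoter marks smooth muscle cells and pericytes; the number of mice behind it is not given, and its 4 libraries were treated as 1 sample with no test. None of the mice received a treatment.

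Cells with over 1000 transcripts were kept, 2477 in 30 MC libraries and 330 in the 4 Myh11 GFP+ libraries. A level is the number of transcripts of a gene per 10000 transcripts outside genes named Gm plus a digit, which took from 14.2% to 58.01% of transcripts by mouse. Summed depth outside those genes lay between 699401 and 5238330 transcripts for a mouse and came to 1440270 for the Myh11 GFP+ cells. The 10 MC markers summed to between 654 and 904 per 10000 in the 6 mice, and to at most 0.27 in any Myh11 GFP+ library, where Cma1, Mcpt4, Tpsb2, Tpsab1, Fcer1a and Ms4a2 were at 0. In the Myh11 GFP+ cells Acta2 stood at 40.1 and Rgs5 at 113.7 per 10000, but fibroblast markers also summed to between 150 and 349 by library. Fibroblast markers summed to 82.8, 54.1 and 21.1 in WT mice 2, 3 and 1 and to 10.6, 1.99 and 0.991 in Tln1ΔMC mice 1, 2 and 3, so they ran higher in all WT mice. Macrophage markers were highest in WT mice 2 and 3 (42.3 and 17.2, against 1.66 to 7.96 in the others), and keratinocyte markers in WT mouse 2 and Tln1ΔMC mouse 3 (21.8 and 21.7, against 0.0256 to 6.24). Tln1 itself stood at 4.51, 5.92 and 6.71 in WT and at 5.57, 4.33 and 3.63 in Tln1ΔMC mice, and since reads near the 3′ end need not cover the deleted part, this does not check the labels.

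The promoters of 4 members are shown because they stand for both sides of the main contrast described next, Cd53 and Cd37 being higher in MCs and Cd9 and Cd151 higher in Myh11 GFP+ cells. Each is the RefSeq sequence of GRCm38.p6 from 250 bases before to 50 after the first listed start, on the strand of the gene and 5′ to 3′. Cd53 lies at chr3:106790100-106790399 (−), Cd37 at chr7:45238790-45239089 (−), Cd9 at chr6:125494711-125495010 (−) and Cd151 at chr7:141467112-141467411 (+). The Cd37 window lies wholly inside the GENCODE span of its gene given below, as do the windows of Cd63 and Tspan3, since those spans start further upstream. Capitals mark the ETS core GGAAGT and the GC box GGGCGG on either strand, and no 2 marked matches overlap.
Cd53: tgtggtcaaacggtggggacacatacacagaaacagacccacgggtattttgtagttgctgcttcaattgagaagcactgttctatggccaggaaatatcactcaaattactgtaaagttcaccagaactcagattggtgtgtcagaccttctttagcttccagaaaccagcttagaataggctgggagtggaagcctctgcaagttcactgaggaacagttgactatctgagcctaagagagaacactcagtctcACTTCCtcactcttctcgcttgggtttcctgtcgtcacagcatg
Cd37: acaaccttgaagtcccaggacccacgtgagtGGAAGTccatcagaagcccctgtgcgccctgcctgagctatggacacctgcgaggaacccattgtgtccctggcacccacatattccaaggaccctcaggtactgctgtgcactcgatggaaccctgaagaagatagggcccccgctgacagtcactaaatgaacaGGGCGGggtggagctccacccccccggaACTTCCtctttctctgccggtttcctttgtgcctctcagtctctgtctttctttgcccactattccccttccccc
Cd9: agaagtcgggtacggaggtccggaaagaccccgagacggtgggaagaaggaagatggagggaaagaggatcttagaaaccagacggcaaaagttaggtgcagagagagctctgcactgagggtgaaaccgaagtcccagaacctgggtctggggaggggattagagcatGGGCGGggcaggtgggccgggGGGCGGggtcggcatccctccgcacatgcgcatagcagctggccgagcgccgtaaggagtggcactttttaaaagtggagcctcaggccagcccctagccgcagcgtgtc
Cd151: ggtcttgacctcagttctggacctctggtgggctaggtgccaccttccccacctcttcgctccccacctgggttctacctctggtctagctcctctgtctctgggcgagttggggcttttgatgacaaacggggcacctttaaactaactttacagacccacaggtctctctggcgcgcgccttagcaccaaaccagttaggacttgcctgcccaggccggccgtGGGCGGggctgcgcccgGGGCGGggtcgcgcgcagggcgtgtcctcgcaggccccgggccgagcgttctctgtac
The ETS core, a short sequence that ETS family factors can bind, is in the promoters of 3 members, with 2 matches in Cd37 and 1 each in Cd53 and Cd63, and in 24.1% of 27025 promoters of the same length. The GC box is in 6 of the 10 (Cd9, Cd37, Cd81, Cd82, Cd151 and Tspan4) and in 35.9% of all promoters. The GATA core GATAA, held by 25.8% of all promoters on either strand, is in none of the 10 windows, and CATTCC, the core of the M-CAT element, is in Cd82 alone of the 10 and in 14.6% of all promoters. The Cd53 window has 46.3% G and C and 4 CpG dinucleotides, and the Cd37 window 57.7% and 8. The values are 61.3% and 18 for Cd9 and 64.3% and 20 for Cd151, and the median promoter has 52.7% and 7.

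In MCs, 3 tetraspanins led and together took 85.1% of the transcripts of all 10 members. Levels of different genes are compared here without division by gene length, since each UMI stands for 1 molecule caught near its 3′ end. Cd63, on chromosome 10 (128900989 to 128912822, plus strand, build GRCm38, GENCODE), had levels of 9.44, 10.9 and 10.6 per 10000 in WT mice 1 to 3 and of 10.7, 9.58 and 13.3 in Tln1ΔMC mice 1 to 3. Its mean of 10.8 ± 1.37 (SD, n = 6 mice) placed it at rank 99 of the 20212 genes outside Gm. Cd53 (chromosome 3, 106759921 to 106790149, minus strand) stood at 6.07, 9.24 and 9.23 in WT and at 7.93, 7.44 and 5.91 in Tln1ΔMC mice, a mean of 7.64 ± 1.46. Cd81, which encodes a widely expressed member (chromosome 7, 143052739 to 143067934, plus strand), was the steadiest of the 3, with 4.15, 4.59 and 4.88 in WT and 4.49, 4.31 and 4.12 in Tln1ΔMC mice (4.42 ± 0.29, rank 310). The ranges of these 3 genes over the 6 mice did not overlap, so that the order Cd63, Cd53, Cd81 held in every mouse.

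Cd37 (chromosome 7, 45233632 to 45239115, minus strand) came next at 1.77 ± 0.50, with 0.994 in WT mouse 1 and between 1.503 and 2.37 in the other 5 mice. Cd82, known as a suppressor of metastasis (chromosome 2, 93419111 to 93463140, minus strand), and Cd151 (chromosome 7, 141467392 to 141471473, plus strand) followed at 0.71 ± 0.23 and 0.66 ± 0.11, and each was the higher of the pair in 3 of 6 mice. Cd37 was above Cd82 in all 6 mice, although their ranges met. Cd9 (chromosome 6, 125460266 to 125494791, minus strand), Tspan4 (chromosome 7, 141475240 to 141493427, plus strand) and Tspan3 (chromosome 9, 56131725 to 56165477, minus strand) had mean levels of 0.39 ± 0.40, 0.27 ± 0.095 and 0.16 ± 0.11, and their ranges overlapped. TSPAN4 marks migrasomes, vesicles left behind by moving cells. Tspan31 (chromosome 10, 127067280 to 127070264, minus strand) was the lowest member, between 0.00849 and 0.101 per 10000.

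**Figure D1:**
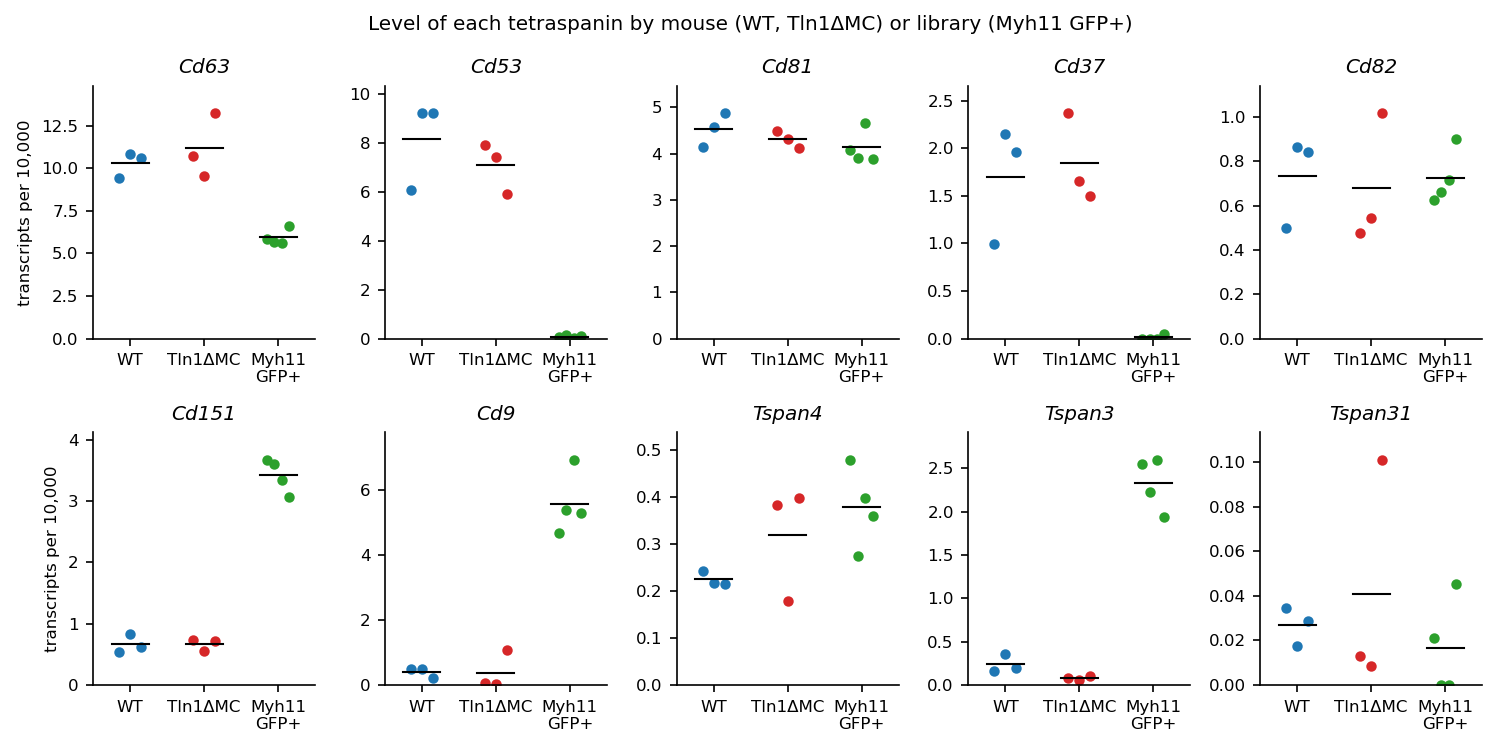
Level of each of the 10 members (transcripts per 10000 outside Gm genes, linear axes from 0, each panel on its own scale) in WT and Tln1ΔMC MCs, 1 point a mouse, and in Myh11 GFP+ cells, 1 point a library; black lines are means of the points. Cd53 and Cd37 lie near 0 in Myh11 GFP+ cells, Cd9, Cd151 and Tspan3 lie above all mice there, and Cd81 and Cd82 overlap.

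Myh11 GFP+ cells carried a similar total of the 10 members, 22.6 per 10000 against 26.8 ± 2.74 over the 6 mice, but from a different set. Cd63, Cd9, Cd81 and Cd151 took 84.2% of it. In 3 members all 4 libraries were above all 6 mice, as were 17.1% of the 12044 genes with at least 30 transcripts in all, and in 3 members all 4 were below, as were 18.8%. These are descriptions without a test, and they compare 2 sorts taken from different mice, in which cell type, sort and mice cannot be told apart.

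The 3 members below all mice in the Myh11 GFP+ libraries were the leukocyte genes Cd53 and Cd37, and Cd63. Cd53 gave 10 transcripts in the 330 cells, with levels of 0.0418, 0.138, 0.0265 and 0.0903 in libraries 13 to 16, and was 110-fold higher in MCs (95% exact Poisson interval of the Myh11 GFP+ count alone, 59.8 to 229). As a ratio of Myh11 GFP+ to MC level this is 0.00909, and it was 0.0302 as a mean over cells, 0.00608 without library 14 and 0.00549 without marker-rich Myh11 GFP+ cells. Cd37 gave 1 transcript, found in library 16, which put the MC level 255-fold higher with an interval of 45.8 to 10084; its ratio of 0.00392 was 0.00591 without marker-rich Myh11 GFP+ cells. Cd63 was lower too but far from absent, at 5.88, 5.68, 5.63 and 6.60, a ratio to MCs of 0.546 (0.510 to 0.584). With Gm genes kept in the totals that ratio was 0.767, and only 2 members, Cd37 and Cd53, had all libraries below all mice. The intervals and the limits for counts of 0 cover counting error only.

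On the other side stood Cd9, Cd151 and Tspan3. Cd9, which joins CD81 in many of the same complexes and takes part in sperm-egg fusion, was at 4.68, 5.37, 6.94 and 5.28 in libraries 13 to 16, and its ratio of 14.2 to the mean of the 6 mice (13.2 to 15.2) was 69.2 when MC-library cells rich in markers of other cell types were left out. Cd151 was at 3.68, 3.61, 3.35 and 3.07, a ratio of 5.24 (4.79 to 5.72), although the nearby Tspan4 on the same chromosome overlapped, with 0.481, 0.275, 0.398 and 0.361 against 0.178 to 0.399 in mice. Tspan3 was at 2.55, 2.23, 2.60 and 1.94, a ratio of 14.9 (13.3 to 16.5), and of 25.9 without the marker-rich MC-library cells. Cd81 (3.88 to 4.67) and Cd82 (0.627 to 0.903) overlapped with the mice, with ratios of 0.941 (0.866 to 1.02) and 0.993 (0.808 to 1.21). When Gm genes were kept in the totals both ratios moved above 1, to 1.37 and 1.36, so no direction is given for them. Within Myh11 GFP+ cells Cd63 exceeded Cd9 in 3 of 4 libraries only, and below them the order Cd81, Cd151, Tspan3, Cd82, Tspan4 held with no overlap between neighbours.

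Among the 19 other tetraspanins, 13 had at least 30 transcripts, of which 5 were above all mice in all Myh11 GFP+ libraries and 1 was below. Of all 12044 genes with at least 30 transcripts, 17.1% were above and 18.8% below. Tspan12, a co-receptor of Norrin signalling in vessels, was at 0.465 per 10000 in Myh11 GFP+ cells and 0.00604 in MCs. Tspan15, a regulator of the protease ADAM10, was at 0.771 against 0.021, Tspan7 at 0.431 against 0.0334, and Tspan17, another ADAM10 regulator, at 0.63 against 0.20. Tspan32 was the reverse case, with no transcript in Myh11 GFP+ cells, where a count of 0 allows up to 0.0208 (3 counts), and 0.379 ± 0.048 in MCs. Tspan2 (0.785 and 0.575), Tspan14 (0.264 and 0.181) and Tspan9 (0.236 and 0.140) overlapped between the libraries and the mice.

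Listed partners and endosomal genes lay on both sides. Of 22 partners, 6 were above all mice in the Myh11 GFP+ libraries and 7 below, where 17.1% and 18.8% of all genes were. Fcer1g and Ms4a2, the gamma and beta chains of the IgE receptor, and the stem cell factor receptor Kit stood at 15.8, 10.2 and 12.1 in MCs and at 0.153, 0 and 0.167 in Myh11 GFP+ cells; that 0 also allows up to 0.0208. Cd44, a hyaluronan receptor, was at 6.63 and 1.67, whereas Cd47 (3.89 and 3.77) and Ifitm2 (3.04 and 3.33) overlapped. Itgb1, the integrin beta chain that CD151 complexes share and a gene chosen after its values were seen, was at 2.90 in MCs and 8.67 in Myh11 GFP+ cells. Of 12 endosome and vesicle genes 2 were above, the lysosomal membrane genes Lamp1 (4.38 against 2.65) and Lamp2 (1.97 against 1.22), and 8 were below. Rab27b, which docks secretory granules, was at 4.45 in MCs and 0.0347 in Myh11 GFP+ cells, Sdcbp, the syntenin that binds the CD63 tail, at 2.91 and 1.26, Rab7 at 3.43 and 1.64, and Vamp8 at 1.04 and 0.465.

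To compare single cells at equal depth, each cell was thinned to 1000 UMIs outside Gm genes, which left out 282 shallower MC-library cells and 23 Myh11 GFP+ cells. Median depth before thinning was 3295 and 3904.5 UMIs. Cd63 was then seen in 63.5% ± 6.22 of MCs (SD, n = 6 mice), from 54.8% in Tln1ΔMC mouse 2 to 74% in Tln1ΔMC mouse 3. Cd53 was seen in 47.8% ± 9.01, Cd81 in 33.7% ± 4.04, Cd37 in 17.7% ± 5.46, Cd82 in 6.26% ± 3.10 and Cd151 in 6.23% ± 1.74. The other 4 members were each in under 2.5% of MCs on average. Without thinning the shares over all 2477 cells were higher, 84.7% for Cd63, 74.4% for Cd53, 63.4% for Cd81, 41.9% for Cd37 and 20.1% for Cd151. Cd9 and Tspan3 were then in 3.67% and 3.79%.

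In Myh11 GFP+ cells Cd63 was seen in 38.4% of 307 thinned cells (95%, Clopper-Pearson, 32.97 to 44.1), Cd9 in 37.5% (32.03 to 43.1), Cd151 in 32.6% (27.4 to 38.1), Cd81 in 30.3% (25.2 to 35.8) and Tspan3 in 23.1% (18.5 to 28.3). Free RNA can give UMIs in cells that do not express a gene, and Cpa3, a protease of MCs, was seen in 0.326% of these cells (0.00825 to 1.80), while Acta2 and Rgs5 were seen in 0.0456% and 0.182% of thinned MC-library cells. The Cd37 share in Myh11 GFP+ cells, 0.326%, was equal to that of Cpa3, and Cd53, at 1.30% (0.356 to 3.30), had an interval that overlapped it, so neither is read as expression there. Tspan31 was in 0 of 307, which allows a share of cells with a UMI of up to 0.977% and does not bound the share of cells that express it. In the MC libraries Cd9 and Tspan3 were in 1.05% (0.665 to 1.57) and 1.09% (0.702 to 1.62) of cells, and Tspan4 and Tspan31 in 2.60% and 0.410%, while Krt5, a keratinocyte keratin, was in 5.97%, with 0.417% to 18.7% by mouse. These 4 low shares lie between those of Acta2 and Krt5, and the part of free RNA in them was not tested.

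**Figure D2:**
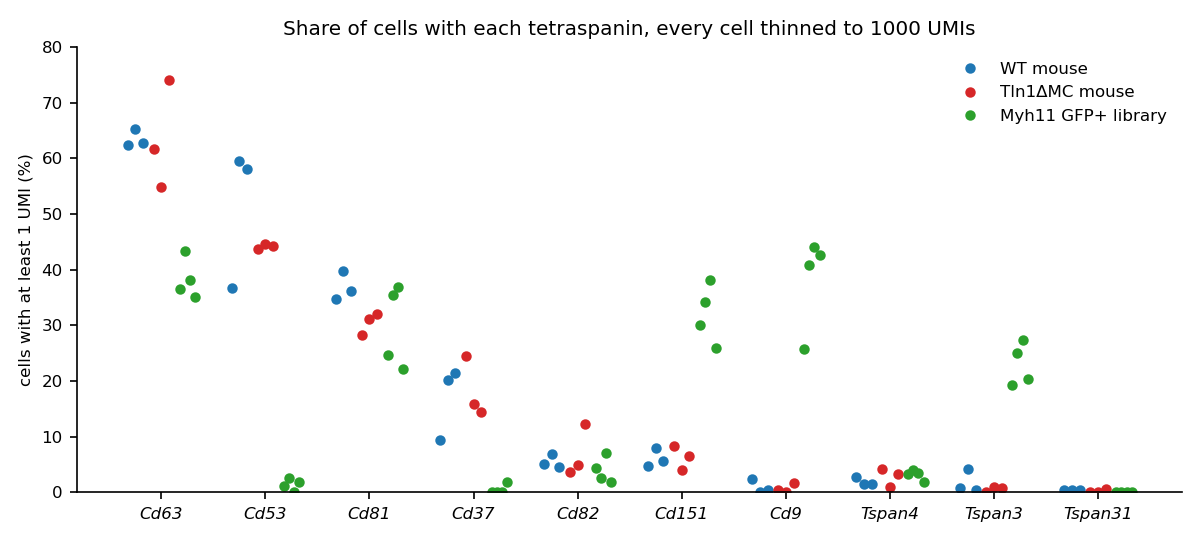
Share of cells with at least 1 UMI of each member (percent, y axis from 0) after thinning every cell to 1000 UMIs, 1 point a mouse for WT and Tln1ΔMC MCs and 1 point a library for Myh11 GFP+ cells. Cd63 is the most widely seen member in MCs, at 54.8% to 74%, and Cd9 and Tspan3 are seen in Myh11 GFP+ cells but in few MCs. Cd151 is seen in 6.23% of MCs on average, and in 20.1% of MC-library cells without thinning.

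The share of cells with a UMI was set beside the share a Poisson draw would give at the same mean. With the mean of 1.18 Cd63 UMIs a thinned cell, a Poisson draw would give 69.2% of cells with a UMI, against 66.5% seen over all thinned MC-library cells. For Cd53 the values were 50.1% and 46.5%, for Cd81 34.7% and 33.1% and for Cd37 16.7% and 16.5%. By mouse the widest gap for Cd53 was in Tln1ΔMC mouse 1, with 51.97% and 43.8%. Pairs among the 4 showed little relation across cells of a mouse. Pearson r over the 6 pairs in 6 mice lay between −0.12 and 0.17 and Spearman rho between −0.12 and 0.10, over 196 to 923 cells that share a mouse and a sort, and in counts this sparse such values are no finding. At least 3 of the 10 members were seen in between 17% and 27.1% of thinned cells by mouse, and in 24.8% of Myh11 GFP+ cells.

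Across the 30 MC libraries, the genes most like Cd63 in log2(level + 0.1) among 1631 genes with a mean level of at least 1 were Tyrobp, an adaptor of activating receptors (r = 0.79), the kindlin gene Fermt3 (r = 0.78) and Sh3bgrl3 (r = 0.76). For Cd53 they were the glycolytic Aldoa (r = 0.89), the sphingosine phosphate lyase gene Sgpl1 (r = 0.85) and the galectin gene Lgals9 (r = 0.84). For Cd81 they were the ATP receptor gene P2rx1, Gnai2 and Rac2 (r = 0.67 for each), with Spearman rho of 0.40, 0.42 and 0.39. Library 8 of Tln1ΔMC mouse 3, which holds the deepest barcode described below, was the lowest of the 30 for Cd63 (7.79), Cd53 (3.58) and Cd81 (2.33). Its part in these correlations was not tested. Libraries of a mouse share its cells and its depth, and Cd63 also had r = −0.61 with the share of Gm transcripts, so these are descriptions only.

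The comparison of genotypes asks whether loss of talin-1 in MCs goes with a change of tetraspanin transcripts. No member passed the test, limma on log2(TMM-scaled transcripts per 1000000 + 1) with Benjamini-Hochberg adjustment over 8601 genes and mice as replicates. The background gives 0% of genes higher and 0% lower in Tln1ΔMC at an adjusted p under 0.05, so the test called no gene at all; 502 had an unadjusted p under 0.05, and the same test with voom weights, chosen after seeing the data, called 2 genes, both lower and neither a member. 9 of the 10 members passed the filter of 10 transcripts in 3 mice and Tspan31 did not. The median log2 fold change of the 9 was −0.040 against −0.0020 for all genes. The labels name the mice but not separate days, and p-values measure the spread between these 3 and 3 mice.

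In each of the 3 leading members the genotypes overlapped and the log2 fold change was smaller than its SE. Log2 fold changes (Tln1ΔMC over WT) were 0.14 for Cd63 (SE 0.20, limma adjusted p = 0.933), −0.16 for Cd53 (SE 0.25, adjusted p = 0.947) and −0.04 for Cd81 (SE 0.18, adjusted p = 0.981). Cd37 was at 0.20 with SE 0.33, Cd82 at −0.12 with SE 0.33, Cd151 at 0.05 with SE 0.23 and Tspan4 at 0.44 with SE 0.31. With 3 mice against 3, the exact two-sided permutation test cannot go below 0.1, and it gave between 0.4 and 1 for every member but Tspan3.

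Tspan3 was the member whose genotypes did not overlap. Its levels were 0.162, 0.357 and 0.2003 per 10000 in WT mice 1 to 3 and 0.0769, 0.0594 and 0.109 in Tln1ΔMC mice 1 to 3, and every Tln1ΔMC mouse was below every WT mouse. Such a pattern toward lower levels was seen in 6.31% of the 8601 genes and toward higher levels in 5.34%, and 2.37% were lower with an unadjusted p under 0.05, Tspan3 among them. The log2 fold change was −1.37 (SE 0.41, limma adjusted p = 0.673), and the exact permutation p was 0.1, the smallest this design allows. The cells rich in markers of other types also differed between the mice. In MC-library cells with at least 1% of transcripts from the macrophage list the level of Tspan3 was 1.37 (0.909 to 1.98) and in those with at least 1% from the fibroblast list 1.37 (0.825 to 2.14), against 0.0872 (0.0689 to 0.109) in cells over 2% MC markers with none of these lists at 1%. In the 14 keratinocyte-rich cells without the deepest barcode, described below, Tspan3 was at 0.260 (0.0536 to 0.760). Such marker-rich cells were 6 of 338, 26 of 294 and 10 of 272 cells in WT mice 1 to 3. They were 3 of 285, 5 of 354 and 13 of 934 in Tln1ΔMC mice 1 to 3. Without them the levels were 0.133, 0.197 and 0.0485 in WT and 0.0389, 0.0596 and 0.0757 in Tln1ΔMC, the genotypes overlapped, and the log2 fold change was −0.83 (limma adjusted p = 0.880). The levels of WT mouse 3 and Tln1ΔMC mouse 1 then rested on 3 transcripts each. The part of the marker-rich cells in the difference was not tested further.

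**Figure D3:**
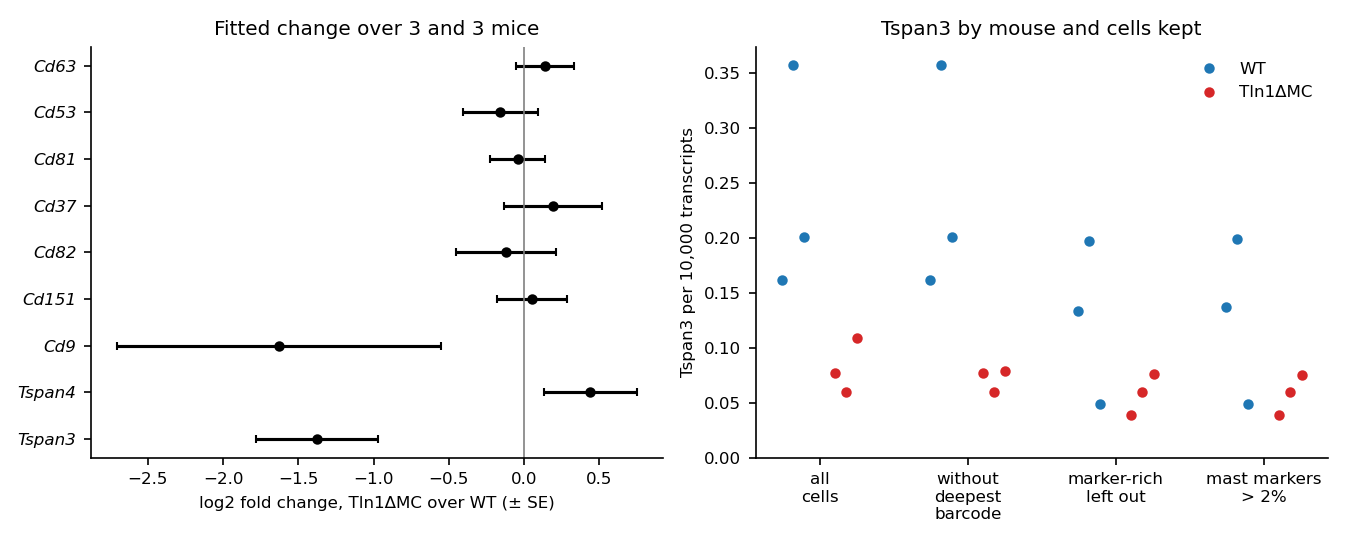
Left, log2 fold change of each tested member in Tln1ΔMC over WT MCs with its SE from limma over 3 and 3 mice. Right, Tspan3 level (transcripts per 10000) of each WT (blue) and Tln1ΔMC (red) mouse with all cells, without the deepest barcode, without cells holding at least 1% of macrophage, fibroblast or keratinocyte transcripts, and with the further demand of over 2% MC markers; the genotypes are apart in all cells and without the deepest barcode and overlap in the other two.

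Cd9 varied widely between mice for its level, and 1 barcode held most of its transcripts. It stood at 0.497, 0.481 and 0.215 in WT mice 1 to 3 and at 0.0513, 0.0170 and 1.09 in Tln1ΔMC mice 1 to 3, so that the knockouts held both the highest and the 2 lowest values, and the log2 fold change of −1.63 had an SE of 1.08 (limma adjusted p = 0.847). The levels of 0.0513 and 0.0170 rested on 4 and 2 transcripts. In Tln1ΔMC mouse 3, library 8 had 5.55 per 10000 and the other 9 libraries between 0 and 0.246. Within library 8, 1 barcode with 399798 transcripts outside Gm genes, where the median MC-library cell had 3301, held 485 of the 688 Cd9 transcripts of all MC libraries, or 70.4%. Its MC markers made up 0.291% of its transcripts and its keratinocyte markers 2.56%, and Krt5 stood at 87.8 and Cpa3 at 4.76 per 10000 in it. Without that barcode library 8 was at 0.429 and the mouse at 0.174, and every Tln1ΔMC mouse was below every WT mouse. The log2 fold change was then −2.48 (SE 0.61, limma adjusted p = 0.362). Only this barcode of a Tln1ΔMC mouse was left out, and the marker-rich barcodes of the WT mice stayed in. With all cells, 6.31% of the 8601 genes were lower in every Tln1ΔMC mouse.

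Most of the remaining Cd9 was in other marker-rich cells too. 62 of them held 15.3% of the Cd9 transcripts, whereas 2369 cells with over 2% MC markers and none of the other lists at 1% held 12.2%, a level of 0.0939 (0.0749 to 0.116). Among the highest were 1 barcode of WT mouse 2 with 43.2 Cd9 transcripts and 2.10% keratinocyte markers, and 1 of WT mouse 1 with 16.0 and 3.80%. In those 2369 cells the mice were at 0.112, 0.0731 and 0.0490 in WT and 0.0130, 0.0171 and 0.134 in Tln1ΔMC, and the genotypes overlapped. The levels of 0.0130 and 0.0171 rested on 1 and 2 transcripts. A fit with a term for sets of libraries that share a profile of unused barcodes, chosen after seeing the data, called Cd9 lower in Tln1ΔMC (log2 fold change −3.32, adjusted p = 0.0186); in it Tln1ΔMC mouse 3, alone in its set, no longer adds to the contrast. With all cells, the log2 difference within sets was −2.95 between Tln1ΔMC 1 and WT 1. It was −3.59 between Tln1ΔMC 2 and the mean of WT 2 and 3. Cd9 gave only 4 transcripts in Tln1ΔMC mouse 1 and 2 in Tln1ΔMC mouse 2 with all cells. For Tspan3 the same differences were −0.89 and −1.95. The fit also used all cells, marker-rich barcodes included, and called 4 genes in all. Cd9 in WT mice 1 to 3 was at 0.497, 0.481 and 0.215 with all cells. Without marker-rich cells it was at 0.182, 0.0726 and 0.0485, against 0.0130, 0.0170 and 0.147 in Tln1ΔMC mice 1 to 3. The fit was not repeated without marker-rich cells, so the Cd9 call was not tested there.

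**Figure D4:**
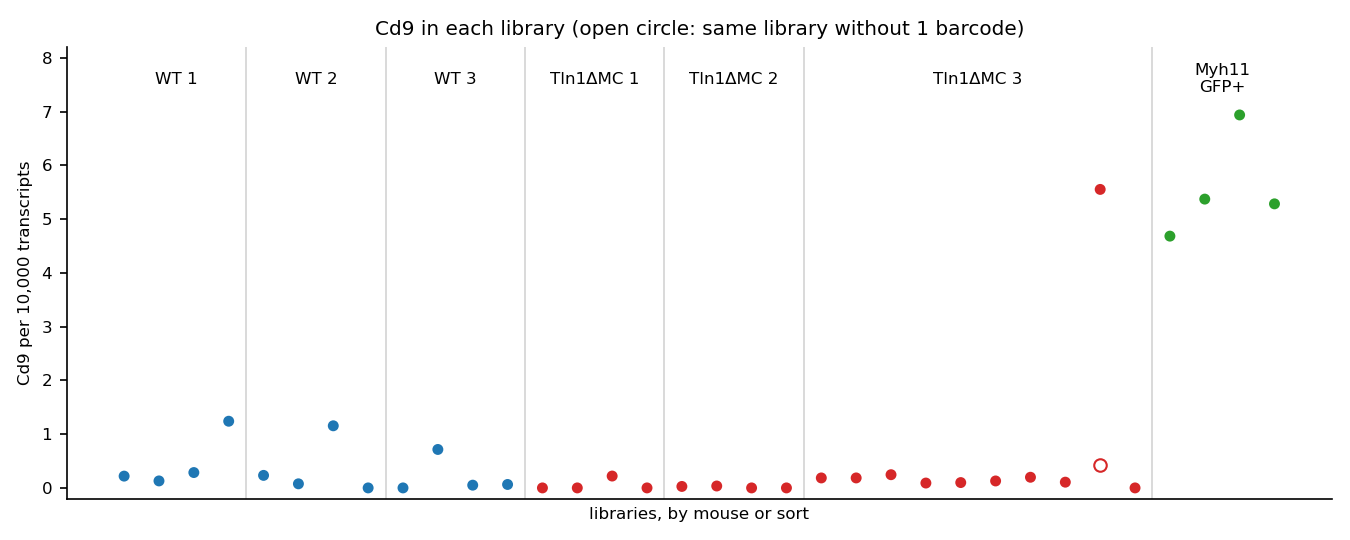
Cd9 level (transcripts per 10000, linear axis) in each of the 34 libraries, grouped by mouse for WT (blue) and Tln1ΔMC (red) MCs and by sort for Myh11 GFP+ cells (green). Library 8 of Tln1ΔMC mouse 3 stands at 5.55, and at 0.429 without 1 barcode (open circle); the other MC libraries lie between 0 and 1.24.

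The listed genes around the members showed no call either. Of 6 other tetraspanins tested, 16 partners and 12 endosome and vesicle genes, 0 passed in either direction by limma, with median log2 fold changes of 0.10, −0.14 and −0.033 against −0.0020 for all genes. At an unadjusted p under 0.05 stood 0 of the other tetraspanins, 1 partner and 1 endosomal gene, each named here for that value. The partner was Ifitm3, an interferon-induced membrane gene, with 0.393, 1.14 and 0.545 in WT and 0.256, 0.0679 and 0.280 in Tln1ΔMC mice (adjusted p = 0.673). The endosomal gene was Lamp1, with 2.77, 3.23 and 3.79 in WT and 2.18, 1.61 and 2.29 in Tln1ΔMC mice and a log2 fold change of −0.66 (SE 0.21, limma adjusted p = 0.687). Both genes were lower in Tln1ΔMC without overlap, as were Itgb1, Rab7 and Tspan5, while Hgs and Tspan14 were higher without overlap, each named for that pattern. Of the 8601 genes 6.31% were lower and 5.34% higher in this way. Tspan2, the other tetraspanin with the highest MC level, was at 0.29 (SE 0.26) and Rab27b at 0.43 (SE 0.19).

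MC-library cells rich in markers of other types, pooled here over mice that hold unequal numbers of them, had other levels of some members. In the 33 cells rich in macrophage markers Cd63 was at 8.42 per 10000 (95% Poisson, 7.19 to 9.75), against 12.6 (12.4 to 12.9) in cells with MC markers alone, whereas Cd53 was at 8.27 (7.06 to 9.60) against 7.30 (7.12 to 7.48), with overlapping intervals. In the 14 keratinocyte-rich cells without the deepest barcode Cd9 was at 5.57 (4.27 to 7.08), Cd53 at 2.52 (1.68 to 3.61) and Cd81 at 1.91 (1.20 to 2.89). In the 18 fibroblast-rich cells Cd9 was at 2.31 (1.58 to 3.26) and Cd81 at 4.26 (3.24 to 5.49). Such barcodes may hold transcripts of more than 1 cell, and no doublet caller was run.

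Myh11 GFP+ cells were divided by Acta2 plus Myh11 at 20 per 10000, with cells of at least 1% fibroblast markers set apart. The cut is a range and not a cell type, as 61 cells lay between 10 and 40. Cd82 was at 0.996 (0.783 to 1.25) in the cells above the cut, 0.444 (0.221 to 0.794) in the 60 cells below it and 0.342 (0.191 to 0.564) in the 92 fibroblast-rich cells, and it was highest above the cut in each of the 4 libraries. Cd81 was at 4.26 (3.81 to 4.75), 2.70 (2.09 to 3.43) and 4.81 (4.18 to 5.50), with the cells above the cut over those below it in each library. Cd63 was at 4.62 (4.15 to 5.13), 4.80 (3.98 to 5.74) and 8.63 (7.79 to 9.55), and the fibroblast-rich cells were highest in each library. Cd9, at 5.34, 5.45 and 5.93, Cd151, at 3.81, 3.07 and 3.15, and Tspan3, at 2.40, 2.22 and 2.46, had intervals that overlapped between the 3 classes. By library, Cd9 in the fibroblast-rich cells was at 10.4 in library 15. It was at 4.33, 4.62 and 3.84 in libraries 13, 14 and 16, where that class was the lowest. Schwann and pigment cell markers summed to 20.7 in the fibroblast-rich cells of library 15. They summed to 0.368, 0 and 0.197 in those of libraries 13, 14 and 16, and their part was not tested. Keratinocyte markers summed to 43.5, 20.1, 37.8 and 0 per 10000 in the cells below the cut of libraries 13 to 16, and their part in these levels was not tested.

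**Figure D5:**
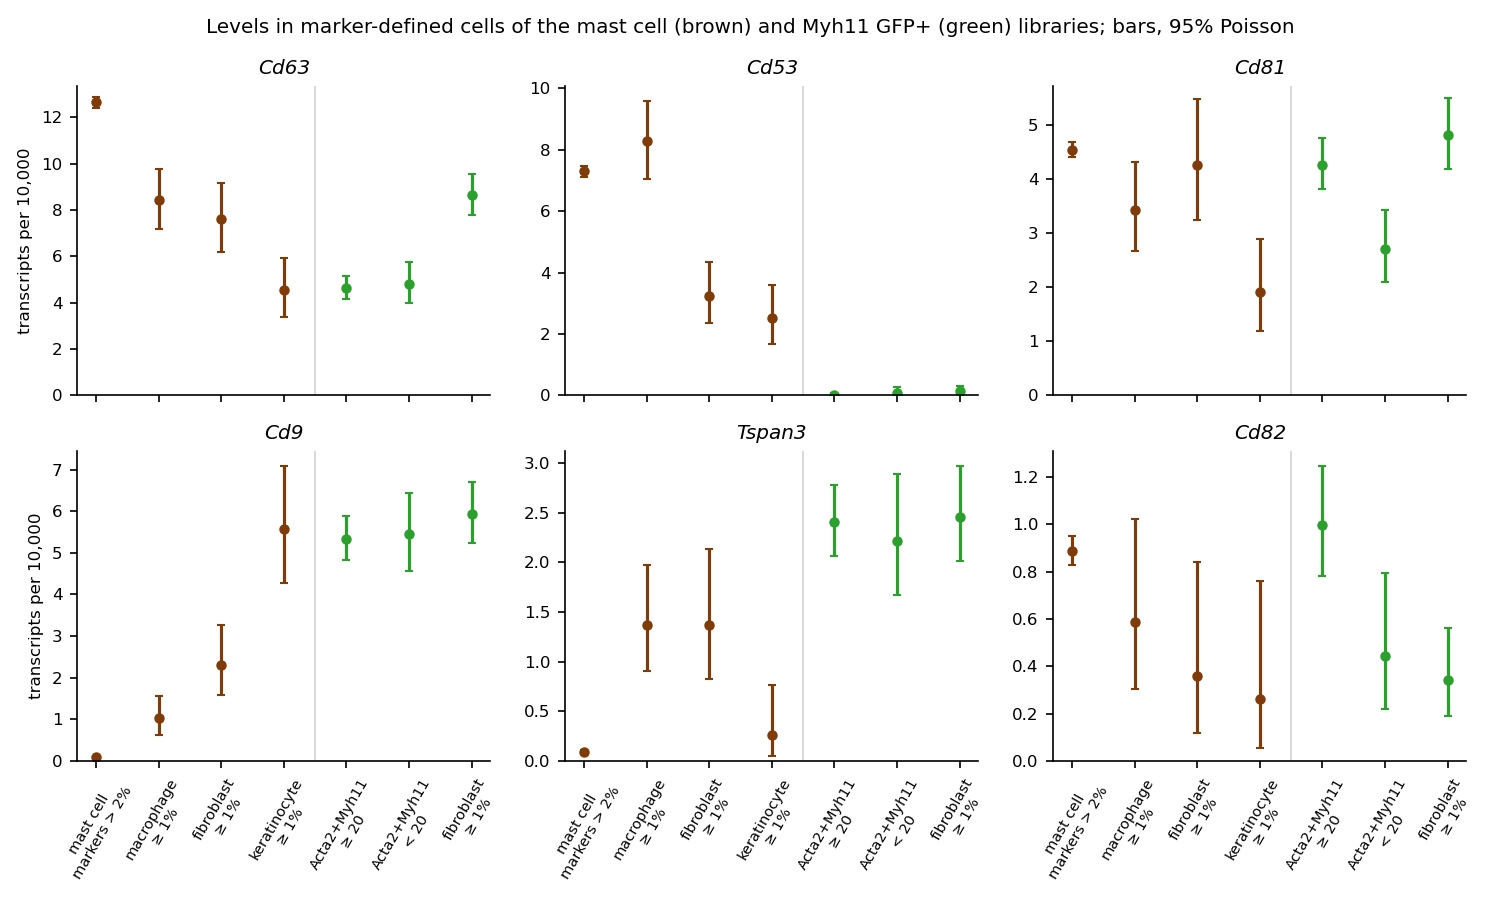
Level (transcripts per 10000, linear axes from 0) of 6 members in cells defined by marker genes, with 95% exact Poisson intervals, in the MC libraries (brown; the keratinocyte class without the deepest barcode) and in the Myh11 GFP+ libraries (green). Cd9 is at 0.0939 in cells with MC markers alone and at 5.57 in keratinocyte-rich cells, and Cd63 is higher in fibroblast-rich Myh11 GFP+ cells (8.63) than in both other classes.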

How the data were processed

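Per the file headers and values, the deposited tables hold transcripts per gene and well barcode, which the authors made with bcl2fastq 2.17.1.14 and BWA 0.6.2-r126 on mm10, keeping reads that map once in the sense direction, counting UMIs of 6 bases and correcting for UMIs drawn more than once. The values go back to whole UMIs out of 4096 possible. Each table has 192 barcodes, of which a library used 96, so that libraries share barcodes by design. Rows of 34 libraries were summed by mouse over cells with over 1000 transcripts, without Gm genes and a spike-in. The mouse number was read from the sample titles. The study kept fewer MCs after exclusions not repeated here. 2 lists of barcodes with cell names were not used, as those names match no sample.

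A count test was planned, but the deposited values are corrected transcripts, so limma 3.58.1 (R 4.3.3) was used with a trend on log2(transcripts per 1000000 + 1) of genes with at least 10 transcripts in 3 mice, scaled by TMM factors of 0.939 to 1.07. On simulated data of the same size it found 61.5% of 200 genes changed 2-fold and 97% of 200 changed 4-fold. The simulation assumed the same spread between mice for every gene and held no sets of libraries and no marker-rich barcodes. These shares therefore do not measure the power for the members in these mice. Poisson and binomial intervals at 95% and permutation tests came from scipy 1.17.1 in Python 3.11.15, and a count of 0 was given a limit of 3 counts. Members, lists and tests were chosen with earlier results of these data known. Genes named are the 10 members, other tetraspanins with a level of at least 0.2 (at most 10), the 6 highest partner and endosome genes in MCs, any that passed, and the genes most like the 3 highest members; exceptions are named as such. Marker lists held 10 MC, 11 of 12 macrophage, 7 fibroblast and 5 keratinocyte genes; the limits of 1%, 2% and 20 per 10000 are ranges. Endothelial markers summed to at most 1.59 per 10000 in a library or mouse and lymphocyte markers to at most 0.214. Schwann and pigment cell markers summed to 6.79 in Myh11 GFP+ library 15 and to at most 1.06 in a mouse. Unused barcodes correlated at r of at least 0.891 within 4 sets of libraries (WT 1 with Tln1ΔMC 1; WT 2 and 3 with Tln1ΔMC 2; Tln1ΔMC 3; Myh11 GFP+) and at most 0.341 between them. Alternatives changed scaling, filters, depth, cells kept and mice.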

Additional observations from a re-analysis of the deposited data

Results flagged for a closer look

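7 of 51 sets of libraries (a mouse, or the Myh11 GFP+ sort, for 1 member with at least 30 transcripts) had a library whose gap to the nearest other library passed Dixon's 95% limit; chance gives about 1 in 20. 4 of them were library 8 of Tln1ΔMC mouse 3, which holds the deepest barcode. Cd9 was at 5.55 per 10000 there and at 0 to 0.246 in the other 9 libraries, Tspan3 at 0.264 against 0 to 0.133, Cd37 at 0.614 against 1.39 to 1.94 and Cd63 at 7.79 against 12.9 to 15.6. That barcode alone held 33.4% of the Tspan3 transcripts of the mouse and 7.63% of all its transcripts outside Gm genes.

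Cd9 was at 1.24 in library 16 of WT mouse 1, against 0.130 to 0.286 in its other libraries. Library 1 of WT mouse 3 was high for Cd82, at 1.33 against 0.659 to 0.715, and for Cd151, also at 1.33 against 0.320 to 0.440; each of these values rests on 22 transcripts.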

How the results depend on the processing

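No member passed limma's test in 19 of 20 alternatives, which include the scaling, filter, depth, cell and replicate choices, with limma and 8 to 10 members tested. The number called was 1, Cd9, with the background sets as a term and marker-rich cells kept (−3.32). Leaving out single mice kept it at 0, but over all genes 12 were called without Tln1ΔMC mouse 1, 1 without WT mouse 1 and 4 with the background sets. With the replicate number as a block the count was 0 and Tspan3 stayed at −1.37 (limma adjusted p = 0.859). Same-numbered mice correlated at 0.163, −0.212 and −0.266, and not every mouse correlated best with its own number. These are correlations of deviations from the means of 3 mice, so they cannot show whether the numbers pair the mice.

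Some signs turned, none with a call. Cd9, at −1.63 otherwise, was 0.060 with voom weights. Cd53 was 0.066 and Cd81 0.051 with the background sets, Cd82 was 0.14 as a mean over cells, and Cd151 was −0.016 in cells over 2000 transcripts and −0.0033 in cells over 2% MC markers. Leaving out 1 mouse at a time gave −0.19 to 0.42 for Cd37, −0.15 to 0.040 for Cd81, −0.42 to 0.10 for Cd82 and −0.12 to 0.24 for Cd151. The cause was not tested.

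Counts of members above or below in Myh11 GFP+ cells stayed within 1.5 times under every alternative, though those below were 2 and not 3 with Gm genes kept. The ratio of Myh11 GFP+ to MC level crossed 1 for Cd82 in cells over 2000 transcripts (1.00), as a mean over cells (1.02), with Gm genes (1.36), without 1 library at a time (0.941 to 1.05), without marker-rich Myh11 GFP+ cells (1.26) and without the unused barcodes (1.00), and for Cd81 as a mean over cells (1.02) and with Gm genes (1.37). The Cd9 ratio lay between 12.9 and 83.5. Members seen in at least 10% of cells numbered 4 in MCs (7 without thinning, 2 at 2 UMIs or more) and 5 in Myh11 GFP+ cells (1 at 2 UMIs or more). Count-based alternatives and one without cells high in Kcnq1ot1 were not run. Depth limits Tspan31, Cd9 and Tspan3 in MCs.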

Other observations

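Of the 10 MC markers, all of which were detected in every mouse, Mcpt4 was the highest at up to 390 per 10000, so that Cd63, the highest tetraspanin, reached at most 13.3. Thinned MC-library cells without a UMI of any of the 10 members made up between 3.82% (WT mouse 2) and 14.2% (WT mouse 1) of a mouse, and 13.03% of Myh11 GFP+ cells. Tspan31 gave 53 transcripts in Tln1ΔMC mouse 3 and no more than 3 in any other mouse, and its level there, 0.101 per 10000, was above the 0.0347 of WT mouse 1, the next highest.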
